A study of Homo sapiens with 18 samples.

Results

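The breast cancer stem cell markers described here are 10 genes that are used to mark or maintain stem-like cells of the breast, namely CD44, CD24, PROM1 and PROCR at the cell surface, the aldehyde dehydrogenases ALDH1A1 and ALDH1A3, and the nuclear factors SOX9, SOX4, KLF4 and BMI1. Their probes were taken by gene symbol from the deposited expression table, which gave 10 of its 19289 genes and 12 of its 21111 probes, since CD24 and BMI1 have 2 probes each. The data were 18 TempO-Seq libraries, a method in which a pair of detector oligonucleotides is ligated on each target RNA and the ligation products are counted by sequencing, so that each value stands for 1 short target site on the RNA. The cells were 3 established triple-negative breast cancer (TNBC) lines. BT549 and Hs578T are described in the study as mesenchymal-like and SUM149PT as basal-like, and all 3 carry ASAP1 amplification. Each line was transfected in 96-well plates with 50 nM siRNA and lysed after 72 h, with 3 libraries of siASAP1, a SMARTpool against the Arf GTPase-activating protein ASAP1, and 3 libraries of siCtrl, a pool of kinase siRNAs. The controls thus carried siRNA and transfection reagent as well, and untransfected cells were not analysed here. The study describes the replicates as biological triplicates.

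Breast cancer stem cells are an operational class, defined by their ability to seed new tumors and to grow as spheres. They are commonly enriched as cells with CD44 and little CD24 on the surface, which lie towards the mesenchymal end of the epithelial-mesenchymal range, or as cells with high aldehyde dehydrogenase activity, which are more epithelial and proliferative. Both kinds of marker can be found in the same cell line, and basal or mesenchymal-like lines often carry CD44 throughout, so RNA levels of a culture do not count stem cells. In these bulk lysates a smaller share of marker-positive cells and less RNA per cell cannot be told apart.

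The promoters of CD24 and KLF4 are shown because these genes differed between the cell lines in opposite directions. The sequences are from RefSeq on GRCh38.p14 and run 5′ to 3′ along the minus strand, from 250 bases before to 50 bases after an annotated start. The CD24 window is chr6:106975578-106975877 and the KLF4 window is chr9:107489720-107490019. Capitals mark CACCC or its reverse complement GGGTG, the core letters of the motif that KLF factors are known to bind.
CD24 promoter: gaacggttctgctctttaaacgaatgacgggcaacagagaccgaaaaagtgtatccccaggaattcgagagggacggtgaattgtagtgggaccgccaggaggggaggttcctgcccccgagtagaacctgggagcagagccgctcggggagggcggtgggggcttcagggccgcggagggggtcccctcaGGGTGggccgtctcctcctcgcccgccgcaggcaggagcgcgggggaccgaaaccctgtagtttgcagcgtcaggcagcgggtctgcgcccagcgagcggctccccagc
KLF4 promoter: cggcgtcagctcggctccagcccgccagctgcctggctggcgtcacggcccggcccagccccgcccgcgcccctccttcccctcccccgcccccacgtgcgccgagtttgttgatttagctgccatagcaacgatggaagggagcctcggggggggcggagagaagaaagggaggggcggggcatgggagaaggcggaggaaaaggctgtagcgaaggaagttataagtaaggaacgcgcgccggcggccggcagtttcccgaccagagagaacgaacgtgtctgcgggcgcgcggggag
The CD24 window shown held 1 such match and the KLF4 window 0, on either strand and with overlaps counted. Other annotated starts of CD24 gave the windows chr6:106975416-106975715, with 1 match, and chr6:106973990-106974289, with 2 matches. Of 35116 promoter windows of 300 bases, 59.9% held at least 1 match, so the match in CD24 is common and says nothing of binding. ACAAT, a core of SOX motifs, was found once in the CD24 window shown, on either strand, and in 27.4% of all windows. The other CD24 windows held 0. GC content was 66.7% for the CD24 window shown and 69.0% for KLF4, against a median of 58.7%. It was 73.7% and 63.3% in the other CD24 windows. Windows were found for 9 of the 10 genes.

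All 10 markers are protein-coding genes in GENCODE release 29 on GRCh38. CD44 lies at chr11:35138870-35232402 on the plus strand and CD24 at chr6:106969831-106975627 on the minus strand. PROCR lies at chr20:35172073-35216240 (plus), PROM1 at chr4:15963076-16084378 (minus), ALDH1A1 at chr9:72900662-73080442 (minus) and ALDH1A3 at chr15:100877714-100916626 (plus). Of the nuclear factors, SOX9 lies at chr17:72121020-72126420 (plus), SOX4 at chr6:21592768-21598619 (plus), KLF4 at chr9:107484852-107490482 (minus) and BMI1 at chr10:22321211-22331484 (plus). SOX4 and CD24 share chromosome 6, and ALDH1A1 and KLF4 share chromosome 9, far apart in both cases, and none lies on the chromosome of ASAP1.

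The libraries held between 4.63 and 12.5 M reads with a median of 6.63 M. Values are given as normalized counts, which are reads scaled by the size factors of the libraries. To compare replicates, the log2 profile of each was set against the average profile of the other 2 in its group, over the 10475 probes that averaged 10 or more normalized counts. Pearson's r was lowest for the library labelled SUM149PT siCtrl replicate 2 (0.773), followed by SUM149PT siASAP1 replicate 2 (0.846), and reached 0.961. ASAP1, the targeted gene, read between 944 and 1107 normalized counts in BT549 siCtrl and between 367 and 783 in BT549 siASAP1, and between 1414 and 2697 against between 782 and 1261 in Hs578T. In SUM149PT it read 1087, 189 and 1314 under siCtrl and 282, 468 and 184 after siASAP1, so the siCtrl replicate 2 lay among the siASAP1 values and ASAP1 went against its label. The library labelled SUM149PT siCtrl replicate 2 therefore stands apart both in its profile and in its ASAP1 level. Marker tests whose call changed without it are given both ways, and other marker tests in part. The results of the other gene lists and the replicate deviations further below are given with it only. ASAP1 had a Log2 FC of -0.96 (SE 0.31) over the 3 cell lines and an adjusted p of 0.127 in limma with Benjamini-Hochberg adjustment, and of -1.20 (adjusted p = 0.0187) without the library labelled SUM149PT siCtrl replicate 2. Epithelial markers separated the lines by their labels. E-cadherin (CDH1) was at 0 in the 12 libraries of BT549 and Hs578T and between 87.9 and 263 in SUM149PT. The 4 mesenchymal markers summed to between 39000 and 105506 in BT549, between 132488 and 252599 in Hs578T and between 5709 and 11847 in SUM149PT, sums carried by VIM and FN1. CDH2 alone was higher in SUM149PT (1434 to 2325) than in BT549 (253 to 691), and ZEB1 was at or near 0 in all lines. EPCAM lay between 18650 and 36679 in SUM149PT, up to 2.52 in BT549 and between 10.6 and 77.8 in Hs578T. Of the receptors by which TNBC is defined, ESR1 lay between 24.3 and 191 in SUM149PT, between 2.89 and 13.1 in Hs578T and at 0 in BT549. PGR had 4 reads in Hs578T and 0 in the other lines. ERBB2 lay between 26.4 and 80.3 in BT549, between 17.7 and 75.9 in Hs578T and between 14.6 and 138 in SUM149PT. The 4 leukocyte markers summed to at most 3.94 in any library, and of the 4 endothelial markers VWF, KDR and CDH5 were at 0.

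A total of 8 of the 12 probes, 1 for each of CD44, CD24, PROCR, ALDH1A3, SOX9, SOX4, KLF4 and BMI1, averaged 10 or more normalized counts over the 18 libraries, as did 49.6% of all probes. The other 4 probes were close to or at 0. PROM1, which encodes the surface glycoprotein CD133, had 10 reads in SUM149PT siASAP1 replicate 3 and 0 in the other 17 libraries. ALDH1A1, the enzyme most often named behind aldehyde dehydrogenase activity in stem cell assays, had 13 reads over 4 libraries and at most 7 in a library. At this depth neither PROM1 nor ALDH1A1 could be compared. The second CD24 probe had 0 reads among 125.1 M, which allows up to 0.024 reads in 1 M, while the first CD24 probe had 10134. The second BMI1 probe had 74 reads against 11160 for the first. Which stretch each probe of a pair reads was not determined here, so a silent probe is no sign of a silent gene. Probes differ in efficiency, and levels are therefore compared between samples and not between genes.

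**Figure D1:**
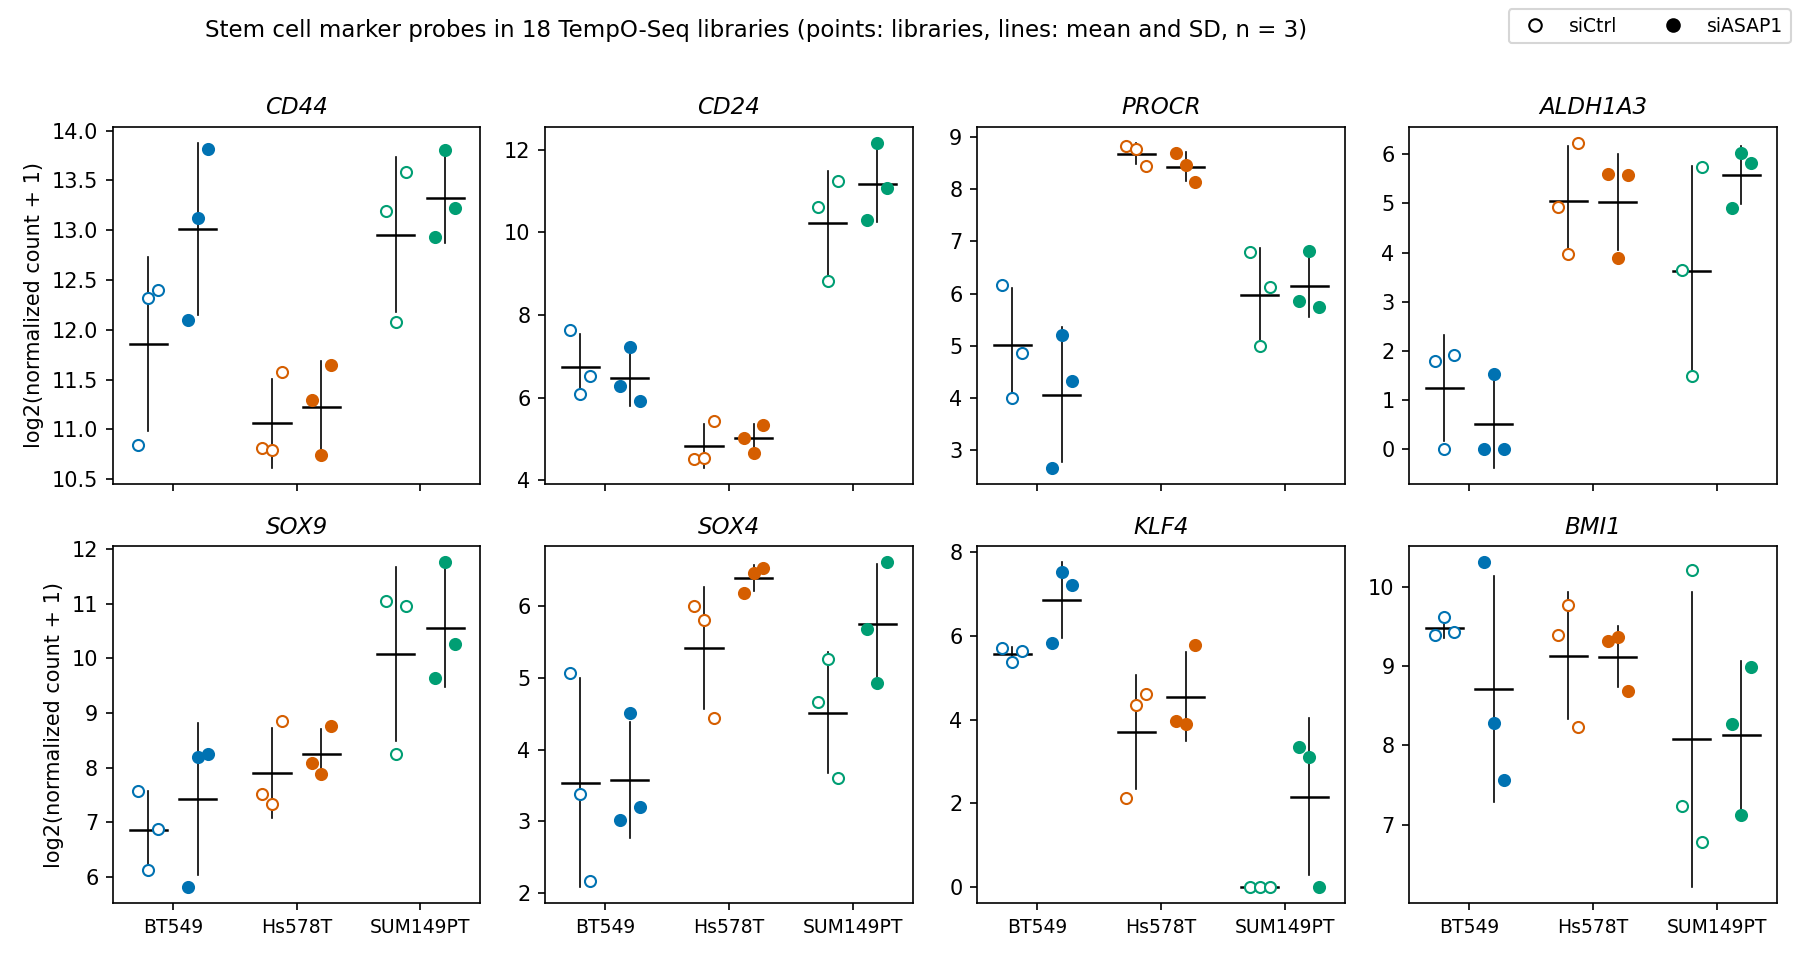
The deposited log2(normalized count + 1) is plotted on the y axis for the 8 detected marker probes in BT549, Hs578T and SUM149PT, with open circles for siCtrl and filled circles for siASAP1 libraries, and the lines give the mean and SD of 3 libraries. CD24 and SOX9 are highest in SUM149PT, PROCR in Hs578T and KLF4 in BT549, and most siASAP1 and siCtrl groups overlap.

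The first question was how the markers differ between the 3 TNBC lines in the absence of ASAP1 depletion. The 9 siCtrl libraries were fitted together with limma over 10255 probes, so the 3 comparisons share libraries and are not independent. In SUM149PT against BT549, 18.2% of all probes had an adjusted p under 0.05, and 3 of the 8 markers did, CD24 and SOX9 higher and KLF4 lower. In SUM149PT against Hs578T the background was 20.2%, and 4 of 8 markers were called, CD24 and CD44 higher and KLF4 and PROCR lower. In BT549 against Hs578T the background was 13.9%, and PROCR and ALDH1A3 were lower in BT549 (2 of 8). KLF4 in SUM149PT and ALDH1A3 in BT549 had means below the minimum level and entered the fit through the other lines. Their calls are given as a description. Without the library labelled SUM149PT siCtrl replicate 2 the background rose to 34.2%, 31.7% and 22.4%, and 6, 6 and 3 of the 8 markers were called. Groups without overlap were found for 3, 4 and 4 of the 8 markers in these comparisons, against 32.8%, 35.4% and 36.7% of all probes.

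CD44, the hyaluronan receptor that binds cells to matrix, was abundant in every library. Under siCtrl it read 1839, 5104 and 5395 normalized counts in BT549, 1797, 1772 and 3049 in Hs578T, and 9358, 4334 and 12272 in SUM149PT. All SUM149PT libraries were above all Hs578T libraries, while BT549 overlapped with both. The log2 difference between SUM149PT and Hs578T was 1.89 (SE 0.52, adjusted p = 0.0294 in limma), a ratio of means of 3.92. This call was lost when Hs578T siCtrl replicate 1 or 2, or SUM149PT siCtrl replicate 1 or 3, was left out (adjusted p from 0.0938 to 0.108). The same contrast in the siASAP1 libraries was 2.09 (adjusted p = 0.00508), and BT549 exceeded Hs578T there by 1.78 (adjusted p = 0.0165). SUM149PT exceeded BT549 by 1.10 (SE 0.52, adjusted p = 0.195), and by 1.53 (adjusted p = 0.0365) without the library labelled SUM149PT siCtrl replicate 2.

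CD24, a small glycosylphosphatidylinositol-anchored sialoglycoprotein of luminal and other epithelial cells, was highest in SUM149PT. It read 198, 67.3 and 90.5 in BT549, 21.9, 22.0 and 42.4 in Hs578T, and 1557, 451 and 2403 in SUM149PT under siCtrl. The 3 groups did not overlap, and the order SUM149PT, BT549, Hs578T held in every library. SUM149PT exceeded BT549 by a log2 difference of 3.47 (SE 0.66, adjusted p = 0.00459), a ratio of means of 12.4. It exceeded Hs578T by 5.39 (SE 0.66, adjusted p = 0.00026), a ratio of 51.1. BT549 and Hs578T, which are neighbours in this order, differed by 1.92 (SE 0.66, adjusted p = 0.0905). Without the library labelled SUM149PT siCtrl replicate 2, which enters that fit through the shared estimate of spread, its adjusted p was 0.0193. The siASAP1 libraries gave 4.71 for SUM149PT against BT549 and 6.16 against Hs578T. Of the 7 epithelial markers, all but KRT14 were, like CD24, at their highest in SUM149PT. KRT14 had a median of 0 in each line and reached 12.8 in Hs578T and 7.69 in SUM149PT. The 7 markers summed to between 27706 and 55457 in SUM149PT, between 57.4 and 326 in BT549 and between 135 and 495 in Hs578T. Their part in the CD24 difference was not tested. Between BT549 and Hs578T under siCtrl, 0 of the 5 epithelial markers tested were called higher in BT549 at an adjusted p under 0.05. EPCAM was lower there (-2.83, adjusted p = 0.00238). Medians over the 6 libraries of a line went both ways, with KRT8 at 179 in BT549 and 130 in Hs578T and KRT18 at 8.37 and 67.8.

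PROCR, the endothelial protein C receptor that also marks mammary stem cells in mice, was highest in Hs578T. It read 452, 435 and 348 in Hs578T, 71.1, 15.1 and 28.1 in BT549, and 110, 31.0 and 68.7 in SUM149PT under siCtrl. All Hs578T libraries were above all others, while BT549 and SUM149PT overlapped. PROCR was lower in BT549 than in Hs578T by a log2 difference of -3.67 (SE 0.64, adjusted p = 0.00352), with BT549 at 0.0925 of the Hs578T mean. SUM149PT differed from Hs578T by -2.71 (SE 0.64, adjusted p = 0.014), a call that was lost without Hs578T siCtrl replicate 1 (adjusted p = 0.0595) or 2 (adjusted p = 0.0559). The siASAP1 libraries gave -4.36 (adjusted p = 0.00099) and -2.29 (adjusted p = 0.0236) for these contrasts, and 2.07 (adjusted p = 0.0445) for SUM149PT against BT549. The endothelial marker PECAM1 was measured in Hs578T and SUM149PT, whereas VWF, KDR and CDH5 were at 0 throughout.

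ALDH1A3, which oxidizes retinal to retinoic acid, was close to 0 in BT549. Its reads there were 2, 0 and 4 under siCtrl, and its normalized counts were 29.5, 14.7 and 73.9 in Hs578T and 11.4, 1.82 and 52.8 in SUM149PT. Every Hs578T library was above every BT549 library, and SUM149PT overlapped with both. BT549 was lower than Hs578T by -3.80 (SE 1.11, adjusted p = 0.0487), a value at the threshold that was lost when any of the 6 libraries compared was left out (adjusted p from 0.0729 to 0.184), and with library totals (0.0523), no filter (0.0695) or a pseudocount of 0.1 (0.0776). In the siASAP1 libraries the difference was -4.52 (adjusted p = 0.00242), and SUM149PT exceeded BT549 by 5.07 (adjusted p = 0.0009). SUM149PT against BT549 gave 2.38 (SE 1.11, adjusted p = 0.185) under siCtrl, and 3.45 (adjusted p = 0.0247) without the library labelled SUM149PT siCtrl replicate 2, whose 2 reads were the fewest of that group. With so few reads in BT549, the pseudocount of 1 sets the size of these differences. The probe passed the minimum level of these fits only through the other lines.

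SOX9, a transcription factor of mammary luminal progenitors, was, like CD24, highest in SUM149PT. It read 188, 68.5 and 116 in BT549, 181, 160 and 459 in Hs578T, and 2114, 302 and 1995 in SUM149PT under siCtrl. In SUM149PT 2 libraries lay far above the other lines, and the library labelled replicate 2 lay among the Hs578T values. SUM149PT exceeded BT549 by 3.23 (SE 0.77, adjusted p = 0.0146), a ratio of means of 11.8, and this call was lost in 4 of the 9 fits that left out a library (adjusted p from 0.0518 to 0.0674). Those libraries were BT549 siCtrl replicates 2 and 3 and SUM149PT siCtrl replicates 1 and 3. Against Hs578T the difference was 2.19 (SE 0.77, adjusted p = 0.0734), and 3.11 (adjusted p = 0.00244) without the library labelled SUM149PT siCtrl replicate 2. The siASAP1 libraries gave 3.14 (adjusted p = 0.00826) and 2.31 (adjusted p = 0.0308).

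KLF4, a zinc finger factor used in reprogramming to pluripotency, was highest in BT549 and lowest in SUM149PT. It read 51.2, 40.9 and 49.1 in BT549, 3.38, 19.6 and 23.6 in Hs578T, and 0 in all 3 SUM149PT libraries under siCtrl. The 3 groups did not overlap. Against a floor of 3 reads over the 3 SUM149PT libraries, KLF4 was at least 38.0-fold higher in BT549 and at least 12.5-fold higher in Hs578T. Its adjusted p was 0.00047 for SUM149PT against BT549 and 0.0057 against Hs578T, while the fitted differences depend on the pseudocount. KLF4 averaged 47.0 in BT549, 15.5 in Hs578T and 0 in SUM149PT. It thus passed the minimum level of the fit only through BT549 and Hs578T, and these calls are given as a description. BT549 and Hs578T differed by 1.87 (SE 0.74, adjusted p = 0.14). After siASAP1, 2 of 3 SUM149PT libraries held 7 and 6 KLF4 reads, and the contrast with Hs578T no longer passed (-2.39, adjusted p = 0.0969).

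SOX4 and BMI1 passed the test in none of the 3 contrasts with all libraries. SOX4, a factor linked to epithelial-mesenchymal transition, read 32.4, 9.43 and 3.51 in BT549, 62.4, 54.7 and 20.7 in Hs578T, and 24.3, 37.4 and 11.2 in SUM149PT under siCtrl. The groups overlapped, and the adjusted p of the 3 contrasts was between 0.2 and 0.509. In the siASAP1 libraries SOX4 was lower in BT549 than in Hs578T by -2.80 (SE 0.65, adjusted p = 0.0116) and higher in SUM149PT than in BT549 by 2.16 (SE 0.65, adjusted p = 0.0354). BMI1, a subunit of Polycomb repressive complex PRC1 that silences CDKN2A, read 670, 786 and 685 in BT549, 668, 871 and 300 in Hs578T, and 150, 1182 and 109 in SUM149PT. The SUM149PT group held both the lowest and the highest of these 9 values. With all libraries BMI1 differed between SUM149PT and BT549 by -1.40 (SE 0.79, adjusted p = 0.275). Without the library labelled SUM149PT siCtrl replicate 2 the difference was -2.47 (SE 0.43, adjusted p = 0.00267), and -2.12 (adjusted p = 0.00579) against Hs578T. The siASAP1 libraries gave -0.59 (adjusted p = 0.592) and -0.99 (adjusted p = 0.298) for the same contrasts.

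**Figure D2:**
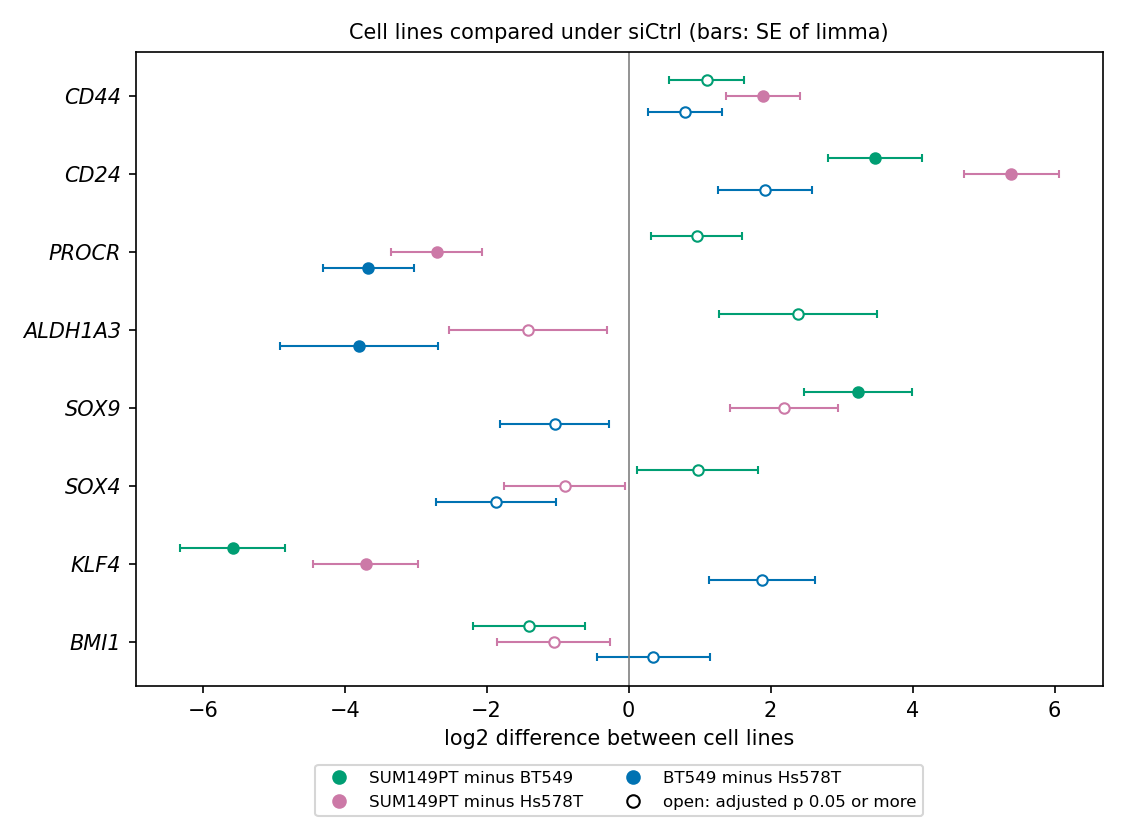
The x axis gives the log2 difference between cell lines in the siCtrl libraries for each marker, with bars for the SE of limma, and filled points have an adjusted p under 0.05. CD24 and KLF4 lie furthest from 0 and on opposite sides in the SUM149PT comparisons, and PROCR is lower than in Hs578T in both other lines.

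The CD44+/CD24- combination was next examined as the ratio of both probes within a library, which does not depend on the scaling. Since the probes differ in efficiency, the ratio is compared between samples and its value is not a ratio of molecules. In Hs578T the ratio was 81.9, 80.4 and 71.98 under siCtrl and 79.1, 70.5 and 81.2 after siASAP1. These 6 values lie closer together than those of any other line, with a log2 SD of 0.10 and 0.11, although CD44 alone ranged from 1713 to 3205 in the same libraries. In SUM149PT the ratio was 6.01, 9.61 and 5.11 under siCtrl and 6.22, 3.14 and 4.45 after siASAP1. In BT549 it was 9.27, 75.9 and 59.6 under siCtrl and 57.4, 60.4 and 243 after siASAP1, so BT549 siCtrl replicate 1 lay among the SUM149PT values and siASAP1 replicate 3 above all other libraries.

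The ratio in Hs578T was 11.7-fold that of SUM149PT under siCtrl and 17.3-fold after siASAP1, without overlap in either case. In an exact two-sided permutation test each had p = 0.1, the smallest that 3 libraries against 3 allow, and an adjusted p of 0.3 over the 9 comparisons made. BT549 exceeded SUM149PT by 21.3-fold after siASAP1 (exact permutation p = 0.1, adjusted p = 0.3) and by 5.22-fold under siCtrl, where the groups overlapped (exact permutation p = 0.2, adjusted p = 0.36). With each library left out, the latter value lay between 3.53-fold and 10.1-fold, the highest without BT549 siCtrl replicate 1. siASAP1 against siCtrl gave log2 differences of the ratio of 1.44 (BT549), -0.02 (Hs578T) and -0.59 (SUM149PT), with exact permutation p = 0.5, 0.6 and 0.3. Leaving out BT549 siCtrl replicate 1 lowered the BT549 difference to 0.49.

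**Figure D3:**
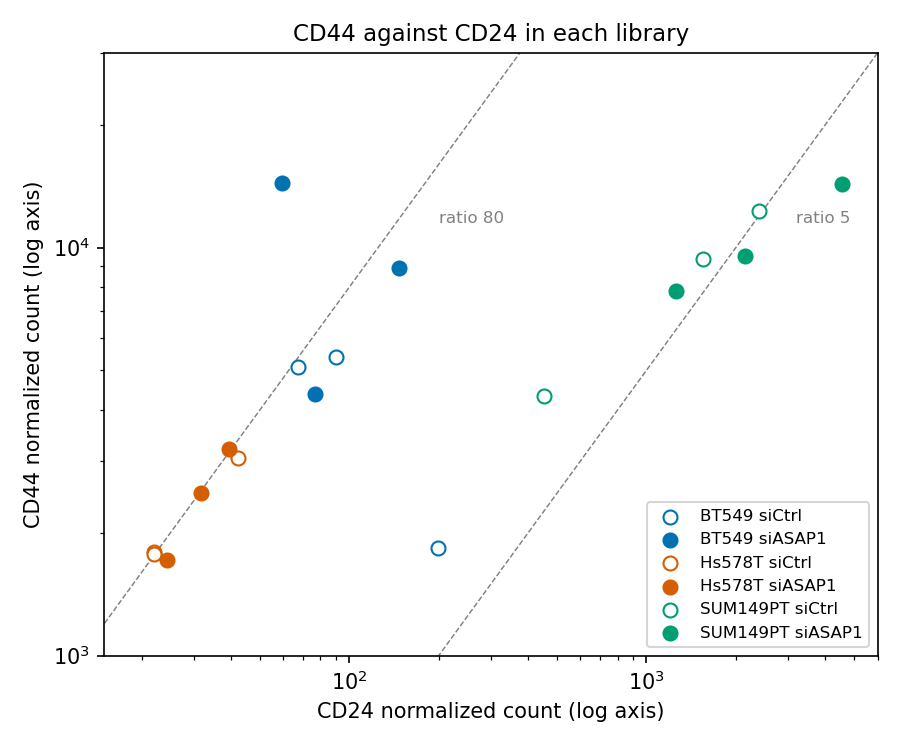
CD44 on the y axis is plotted against CD24 on the x axis as normalized counts on log axes, 1 point a library, with dashed lines at constant ratios of 5 and 80. Hs578T and most BT549 libraries lie near the upper line and SUM149PT libraries near the lower one. BT549 siCtrl replicate 1 (ratio 9.27) lies nearer the lower line, and BT549 siASAP1 replicate 3 (ratio 243) lies above the upper one.

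The main comparison of the study was siASAP1 against siCtrl in each line, with the library whose ASAP1 level went against its label kept among the SUM149PT controls. No marker had an adjusted p under 0.05 in any line, where the background was likewise 0%, with 0 probes called in limma among the 9666 of BT549, the 9500 of Hs578T and the 10078 of SUM149PT. Without the library labelled SUM149PT siCtrl replicate 2, limma called 107 of 9953 probes (1.08%) in SUM149PT and 0 of the 7 markers. With voom weights on all libraries no marker passed either. At an unadjusted p under 0.05 there were 2, 0 and 0 markers, against 7.8%, 5.28% and 10.2% of all probes. Over the 3 lines 0 of 8 markers were called, against 1.74% of 10475 probes. The study called genes at p under 0.05 without adjustment, from the Wald test of DESeq2 within a line, when the Log2 FC was above 1 or below -1. Here these limits were applied to the p of limma, also over the 3 lines. CD44 and KLF4 were then called in BT549 (2 of 7 tested, 6.97% of all probes), 0 of 8 in Hs578T (2.78%) and 0 of 7 in SUM149PT (9.56%). Without the library labelled SUM149PT siCtrl replicate 2, 2325 of 9953 SUM149PT probes met these limits. The count of markers meeting them is not given for that fit. Over the 3 lines KLF4 was called (1 of 8, 6.48%). ALDH1A3 in BT549 and KLF4 in SUM149PT were below the minimum level and were not tested there. The groups did not overlap for KLF4 in BT549 (1 of 7, against 13.9% of all probes), SOX4 in Hs578T (1 of 8, against 12.1%) and 0 of 7 markers in SUM149PT (17.3%).

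KLF4 had the largest Log2 FC of the markers over the 3 lines. In BT549 it read 51.2, 40.9 and 49.1 under siCtrl and 56.0, 184 and 147 after siASAP1, where the lowest siASAP1 library was just above the highest control. The Log2 FC in BT549 was 1.28 (SE 0.55, unadjusted p = 0.0401, adjusted p = 0.633 in limma), and 1.79 (adjusted p = 0.0469) without BT549 siASAP1 replicate 1, a fit in which 5.63% of all probes were called. Hs578T read 3.38, 19.6 and 23.6 under siCtrl and 14.7, 13.9 and 54.4 after siASAP1, a Log2 FC of 0.85 (SE 0.90, adjusted p = 0.942) that ranged from 0.061 (without siCtrl replicate 1) to 1.31 (without siCtrl replicate 3). In SUM149PT it went from 0 reads in 3 libraries to 7, 6 and 0 reads. The Log2 FC over the 3 lines was 1.43 (SE 0.51, unadjusted p = 0.0117, adjusted p = 0.161), a fitted value that depends on the pseudocount because of the zeros in SUM149PT. KLF4 therefore met the study's limits, applied to limma, in BT549 and over the 3 lines, and not in Hs578T. With all libraries it did not meet the adjusted threshold.

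CD44 had its largest Log2 FC in BT549, where it did not pass the adjusted threshold. It read 4387, 8892 and 14425 after siASAP1 against 1839, 5104 and 5395 under siCtrl, with 1 siASAP1 library inside the control range. The Log2 FC was 1.16 (SE 0.52, unadjusted p = 0.0489, adjusted p = 0.638), and between 0.65 and 1.61 when each library was left out. In Hs578T CD44 read 2510, 1713 and 3205 after siASAP1, a Log2 FC of 0.17 (SE 0.32). In SUM149PT it read 7832, 14356 and 9535, a Log2 FC of 0.37 (SE 0.48) that became -0.066 without the library labelled SUM149PT siCtrl replicate 2. A difference between the lines was not detected in the interaction test (adjusted p = 0.968), in which only 0.00955% of probes were called. Over the 3 lines the Log2 FC was 0.56 (SE 0.29, unadjusted p = 0.0687, adjusted p = 0.358).

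SOX4 read 71.4, 86.2 and 90.6 in Hs578T after siASAP1, all above the 62.4, 54.7 and 20.7 under siCtrl. The Log2 FC was 0.97 (SE 0.49, unadjusted p = 0.0762, adjusted p = 0.923). In SUM149PT SOX4 read 50.3, 29.5 and 95.9 after siASAP1 against 24.3, 37.4 and 11.2, with overlap and a Log2 FC of 1.23 (SE 0.76, adjusted p = 0.626), or 1.60 (adjusted p = 0.245) without the library labelled SUM149PT siCtrl replicate 2. In BT549 it read 7.11, 21.7 and 8.21 after siASAP1, inside the control range, with a Log2 FC of 0.04 (SE 1.03). The common Log2 FC was 0.74 (SE 0.43, adjusted p = 0.428).

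ALDH1A3 had the largest Log2 FC of the markers in SUM149PT, 1.96 (SE 1.12, adjusted p = 0.595). It read 29.1, 64.1 and 55.2 after siASAP1 against 11.4, 1.82 and 52.8 under siCtrl, so the groups overlapped through siCtrl replicate 3. Without the library labelled SUM149PT siCtrl replicate 2 the Log2 FC was 0.89. In Hs578T it read 47.6, 13.9 and 46.9 after siASAP1, a Log2 FC of -0.02 (SE 0.72), and in BT549 the siASAP1 libraries held 0, 2 and 0 reads. The differences of ALDH1A3 in Hs578T and SUM149PT were thus within the spread of its replicates.

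The remaining markers had values on both sides of 0. CD24 read 1259, 4565 and 2141 in SUM149PT after siASAP1, a Log2 FC of 0.95 (SE 0.71, adjusted p = 0.682), and of 0.26 (adjusted p = 0.779) without the library labelled SUM149PT siCtrl replicate 2. It read 76.4, 147 and 59.3 in BT549 (-0.28, SE 0.56) and 31.7, 24.3 and 39.5 in Hs578T (0.18, SE 0.53). All 3 comparisons overlapped with their controls. SOX9 read 55.1, 291 and 304 in BT549, whereas Hs578T gave 271, 236 and 435 and SUM149PT gave 796, 3455 and 1234, with Log2 FC of 0.56 (SE 0.68), 0.35 (SE 0.44) and 0.47 (SE 0.85). The SUM149PT value of SOX9 became -0.45 without the library labelled SUM149PT siCtrl replicate 2. It became -0.13 without SUM149PT siASAP1 replicate 2, so its sign there depends on single libraries of both groups. When each library was left out, SOX9 ranged from 0.15 (without siASAP1 replicate 3) to 1.37 (without siASAP1 replicate 1) in BT549, and from 0.069 (without siCtrl replicate 2) to 0.83 (without siCtrl replicate 3) in Hs578T.

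PROCR read 5.33, 35.9 and 19.2 in BT549 (-0.95, SE 0.87), 410, 352 and 282 in Hs578T (-0.25, SE 0.29) and 56.9, 112 and 52.6 in SUM149PT (0.16, SE 0.66) after siASAP1. BMI1 read 1264, 310 and 188 in BT549. It read 636, 657 and 409 for Hs578T and 308, 138 and 505 for SUM149PT. Its Log2 FC was -0.76 (SE 0.61), -0.01 (SE 0.41) and 0.05 (SE 0.93). In SUM149PT the values of PROCR and BMI1 became -0.32 and 1.12 without the library labelled SUM149PT siCtrl replicate 2. In BT549 the siASAP1 libraries surrounded the controls, and without siASAP1 replicate 1 the Log2 FC was -1.56 (SE 0.33, adjusted p = 0.0402), again against 5.63% of all probes called, and without siASAP1 replicate 3 it was -0.19. The interaction test gave the 8 markers adjusted p between 0.96 and 0.998, so a difference in the siASAP1 effect between lines was not detected. The median Log2 FC of the 8 tested markers over the 3 lines was 0.43, against 0.02 for all probes, and became 0.12, against 0.04, without the library labelled SUM149PT siCtrl replicate 2.

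**Figure D4:**
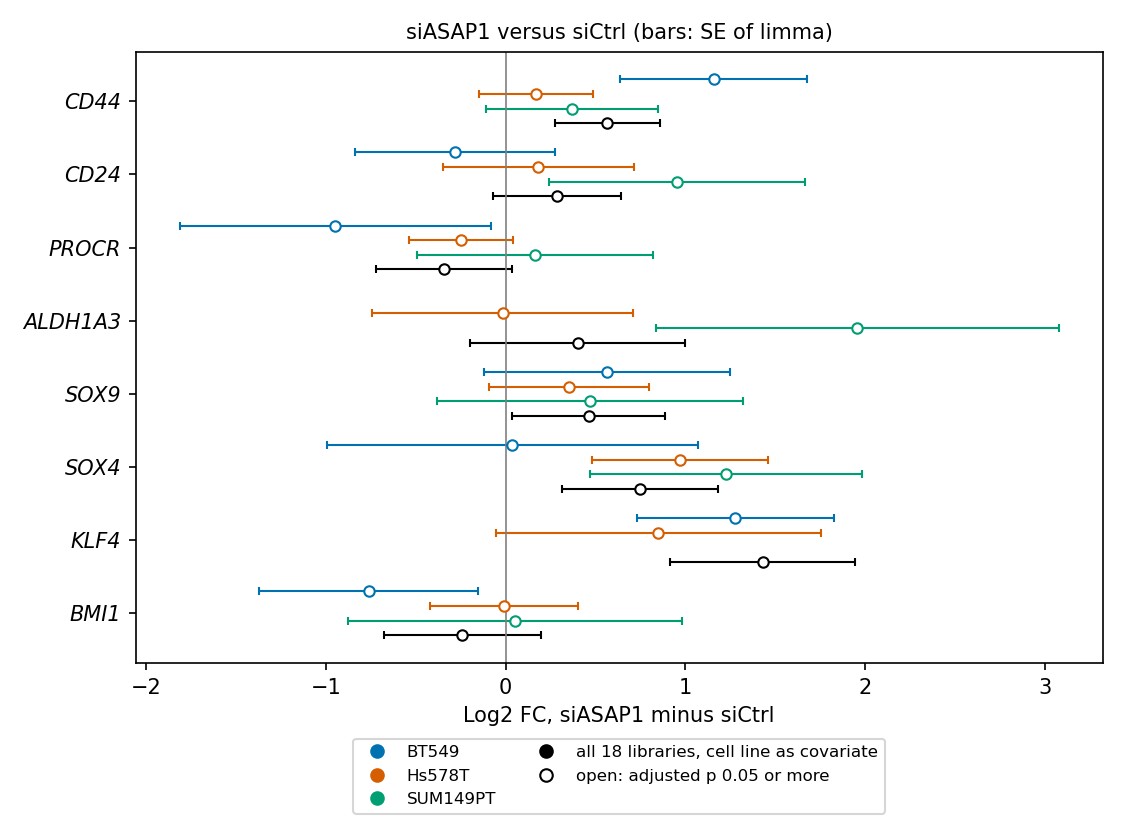
The x axis gives the Log2 FC of siASAP1 against siCtrl for each marker in BT549, Hs578T and SUM149PT and over all 18 libraries (black), with bars for the SE of limma. All points are open because no adjusted p was under 0.05, and KLF4, CD44 and SOX4 lie furthest above 0 in the values over the 3 lines.

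The spread between replicates was itself ordered among the markers. Deviations of each library from the mean of its own group were compared over the 18 libraries, which share cell line, size factor and depth within a library, and r is given as a description. SOX9 and BMI1 deviated in opposite directions with r = -0.92, with -0.90 among BT549 libraries, -0.99 among Hs578T and -0.93 among SUM149PT. Of 10475 probes, 2.54% had an r with SOX9 at or under that of BMI1. The libraries with the most BMI1 for their group, the library labelled SUM149PT siCtrl replicate 2 at 1182 and BT549 siASAP1 replicate 1 at 1264, had the least SOX9, 302 and 55.1.

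CD24 deviated with SOX9 (r = 0.81) and with ALDH1A3 (r = 0.85). CD44 and CD24 deviated together in Hs578T (r = 0.97) and SUM149PT (r = 0.99), with 6 libraries each, and against each other in BT549 (r = -0.59). How many other probes reach such r with these markers was not counted. The leading axis of replicate deviations over 10475 probes held 42.5% of their variance, and 25.0% of probes had an absolute r above 0.8 with it. SOX9 had r = -0.97 with this axis, and 0.181% of probes had a lower value. BMI1 had r = 0.96, and 98.1% of probes had a lower value. CD24, ALDH1A3, PROCR, CD44 and KLF4 had r of -0.83, -0.74, -0.72, -0.66 and -0.42, and SOX4 had 0.27. SOX9 and BMI1 thus followed this axis closely, while SOX4 and KLF4 followed it least. The library labelled SUM149PT siCtrl replicate 2 had the largest weight on the axis (0.56). SUM149PT siASAP1 replicate 2 (-0.37) and BT549 siASAP1 replicate 1 (0.34) followed. Neither the axis nor the r of SOX9 with BMI1 over 18 libraries was computed without the library labelled SUM149PT siCtrl replicate 2. What this axis stands for was not tested.

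**Figure D5:**
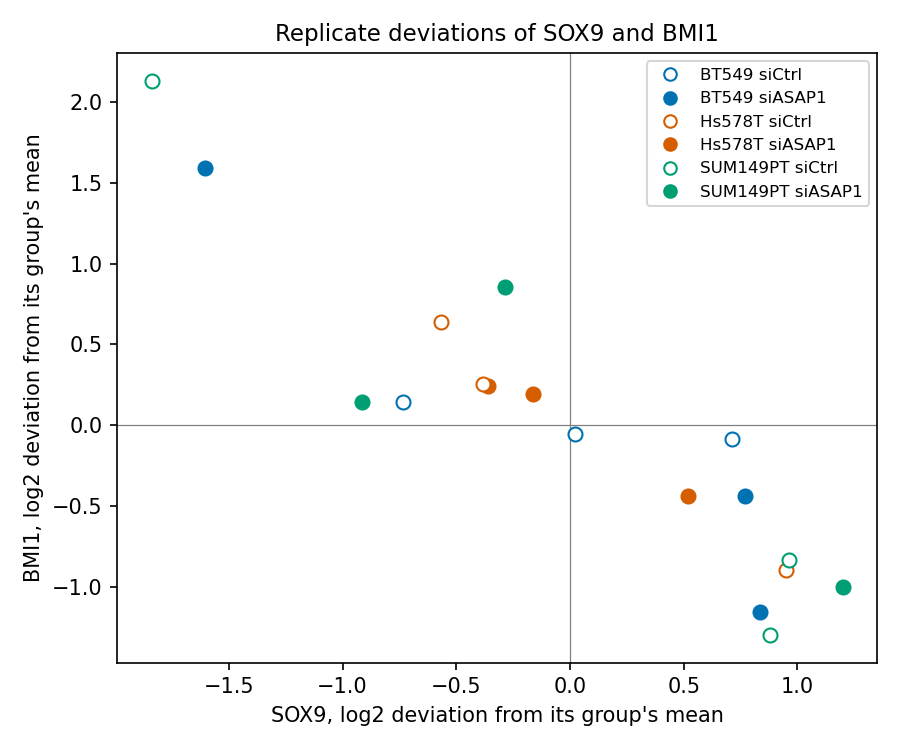
The log2 deviation of BMI1 from its group mean (y axis) is plotted against that of SOX9 (x axis), 1 point for each of the 18 libraries, coloured by cell line and filled for siASAP1. The points fall from upper left to lower right with r = -0.92, and the library labelled SUM149PT siCtrl replicate 2 and BT549 siASAP1 replicate 1 are the 2 libraries at the upper left.

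For each detected marker, the 2 probes of other genes with the most similar levels over the 18 libraries were taken from 10474 probes, and the r values below include the differences between lines. CD24 was most like CDA (r = 0.97), the cytidine deaminase, and the keratin KRT83 (r = 0.97). SOX9 was most like PRKCD, a protein kinase C (r = 0.95), and the surface protein CD276 (r = 0.95). PROCR was most like NDRG1 (r = 0.97) and AP1S1 (r = 0.96), and CD44 was most like GFOD2 (r = 0.96) and ECSIT (r = 0.95). How far these r values come from differences between lines or from the spread of replicates was not tested. BMI1 was most like TMEM30A and C5orf51 (both r = 0.96), ALDH1A3 like RCAN3 (r = 0.91) and PINK1 (r = 0.90), and KLF4 like FSTL1 (r = 0.91) and MOK (r = 0.90). SOX4 had no close match, with TANK and RGPD6 both at r = 0.83.

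Other genes around these markers were taken from 7 lists with 107 genes, which hold further stem cell markers, SOX, KLF and pluripotency factors, CD44 ligands and partners, the retinoid pathway, the ALDH family, PRC1 and INK4 genes, and the protein C pathway. Over the 3 lines 1 of the 72 genes tested was higher after siASAP1 at an adjusted p under 0.05 and 0 were lower, against 0.678% of all probes higher. That gene was SPP1, which encodes the CD44 ligand osteopontin, whose Log2 FC was 2.60 (SE 0.57, adjusted p = 0.0228). SPP1 had between 0 and 13 reads under siCtrl. After siASAP1 it read between 19.1 and 27.2 normalized counts in Hs578T and between 11.9 and 73.6 in SUM149PT, but at most 3.78 in BT549, so its mean over all libraries passed the minimum level only through those siASAP1 libraries. The call was lost without Hs578T siASAP1 replicate 1 (adjusted p = 0.0506) or 3 (adjusted p = 0.0504), with no filter (adjusted p = 0.0519) and with a replicate block (adjusted p = 0.093), and is given as a description.

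By the study's limits, 3 of 62 list genes were higher and 2 lower in BT549. The counts were 5 and 0 of 64 for Hs578T, and 5 and 4 of 69 for SUM149PT. The shares of all probes in either direction were 6.97%, 2.78% and 9.56% of all probes. Among the 13 further stem cell markers tested over the 3 lines, 0 were called after adjustment, with a median Log2 FC of -0.14 against 0.02 for all probes. The 11 CD44 ligand and partner genes had a median of 0.31 and the 10 retinoid genes 0.08. The 10 ALDH genes had a median of -0.15 and the 16 PRC1 and INK4 genes 0.01. The 9 SOX, KLF and pluripotency factors had 0.30 and the 3 protein C pathway genes 0.58. Between the lines under siCtrl, 15 of 70 list genes were higher and 8 lower in SUM149PT than in BT549, 11 and 14 in SUM149PT than in Hs578T, and 6 and 14 in BT549 than in Hs578T, at an adjusted p under 0.05, against 18.2%, 20.2% and 13.9% of all probes in either direction.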

How the data were processed

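TempO-Seq libraries of 3 TNBC cell lines, each with 3 siASAP1 and 3 siCtrl replicates, were grouped by the submitters' labels. The authors counted reads per probe, divided them by size factors from DESeq2, added 1 and deposited log2 values. Bowtie and bcl2fastq are named in the submitters' processing notes, and the genome build is not given in the sources used here. Whole reads were recovered for 100% of values (tolerance 0.02 reads), giving between 4.63 and 12.5 M reads a library. Intervals and floors of 3 reads cover counting error only.

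Probes that averaged 10 or more normalized counts over the libraries of a fit were tested by moderated linear models (limma 3.58.1, eBayes with trend, R 4.3.3) with Benjamini-Hochberg adjustment over all tested probes. Each cell line was fitted alone. Fits over 18 libraries used the cell line as a covariate or with the interaction, and the 9 siCtrl libraries gave the comparisons between lines. Log2 FC is on the log2(value + 1) scale and understates changes of low probes. The ratio of CD44 to CD24 was tested by exact permutation and was added after the data were seen. Alternatives were TMM scaling, library totals, no filter, a minimum of 50, a pseudocount of 0.1, voom weights, all libraries in 1 fit, the replicate block and each replicate left out. The tests were tried on simulated data first.

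The markers and lists were chosen with earlier results of these data known. Named genes were all member probes, ASAP1, up to 3 genes from the other lists with an adjusted p under 0.05 over the 3 lines, and the 2 probes with the highest Pearson r for each marker. Promoters came from RefSeq on GRCh38.p14. Figures were drawn with matplotlib 3.10.9 in Python 3.11.15.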

Additional observations from a re-analysis of the deposited data

How the results depend on the processing

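The number of markers with an adjusted p under 0.05 was 0 for siASAP1 in Hs578T, in SUM149PT, over the 3 lines and in the interaction under each alternative run, and in BT549 it was between 0 and 2 with a library left out (2 without siASAP1 replicate 1, where BMI1 and KLF4 passed, as did 5.63% of all probes). Between lines it was between 2 and 6 for SUM149PT against BT549, between 2 and 6 for SUM149PT against Hs578T and between 1 and 3 for BT549 against Hs578T when each library was left out. The 6 in both SUM149PT contrasts came without the library labelled SUM149PT siCtrl replicate 2, where 34.2% (against BT549) and 31.7% (against Hs578T) of all probes were called. In the siASAP1 libraries the first contrast gave 6 and the third 4. The third gave 1 with library totals, no filter, a minimum of 50 and a pseudocount of 0.1. Library totals moved the median Log2 FC of all probes to 0.30 in SUM149PT, 0.12 in Hs578T and 0.15 over the lines, and the median difference to -0.20 for SUM149PT against BT549 and 0.21 for BT549 against Hs578T.

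Some values near 0 changed sign, and the cause was not tested. SOX4 in BT549 was -0.00015 with TMM, ALDH1A3 and BMI1 in Hs578T were 0.095 and 0.10 with library totals, and BMI1 in SUM149PT was -0.018 with voom. In the siASAP1 libraries ALDH1A3 was 0.56 for SUM149PT against Hs578T and BMI1 -0.40 for BT549 against Hs578T. With each library left out, the Log2 FC ranged in BT549 from -0.65 to 0.16 for CD24 and from -0.65 to 0.31 for SOX4. It ranged in Hs578T from -0.55 to 0.57 for ALDH1A3, from -0.46 to 0.31 for BMI1 and from -0.041 to 0.43 for CD44. In SUM149PT it ranged from -0.60 to 1.12 for BMI1, from -0.066 to 0.68 for CD44, from -0.32 to 0.58 for PROCR and from -0.45 to 0.95 for SOX9. Over the 3 lines it ranged from -0.014 to 0.60 for ALDH1A3 and from -0.45 to 0.043 for BMI1, and BMI1 in BT549 against Hs578T ranged from -0.10 to 0.67. The log2 ratio of CD44 to CD24 ranged from -0.080 to 0.040 for siASAP1 in Hs578T and from -0.38 to 0.66 for BT549 against Hs578T after siASAP1. Of 1195 alternative values for 73 results, 1121 kept their direction and side of the threshold.

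The replicate numbers are shared between groups, but same-numbered libraries did not deviate together in every line (r between -0.65 and 0.35, over 0.1 in 3 of 9 pairs). The mean r was 0.26 in Hs578T, -0.14 in BT549 and -0.43 in SUM149PT, and the numbers were not taken as pairs. With a replicate block in the fit, the markers called were 0 in each siASAP1 comparison, 3 for SUM149PT against BT549, 5 for SUM149PT against Hs578T, where SOX9 passed (2.19, adjusted p = 0.0166), and 3 for BT549 against Hs578T, where CD24 passed (adjusted p = 0.0428). SPP1 had an adjusted p of 0.093 with the block and of 0.0519 with no filter. For siASAP1 in Hs578T, 37 of 9500 probes were called with the block, against 0 without it. With 3 libraries a group, SE of 0.29 to 1.12 for the markers within a line leave modest changes undetectable, and ALDH1A3, KLF4 and SOX4 rest on few reads.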
